A study of Mus musculus with 23 samples.

Results

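Heat shock and protein folding genes were followed across all 23 libraries of a study of microglial renewal in young and old mice. The 10 genes were taken by symbol from the 53090 genes of each deposited table: Hspa8, Hspa1a, Hspa1b, Dnajb1 and Hsph1 of the cytosolic HSP70 system, the cytosolic HSP90 genes Hsp90aa1 and Hsp90ab1, the mitochondrial chaperonin gene Hspd1, and Hspa5 and Xbp1 of the endoplasmic reticulum (ER). All 10 are protein-coding, each symbol stood on 1 row, and all 10 passed the filter on low counts.

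Chaperones bind proteins that are not yet folded or have lost their fold, and let them fold again or pass them on for degradation. In the cytosol, HSP40 proteins such as Dnajb1 hand substrates to HSP70, nucleotide exchange factors such as Hsph1 reset HSP70, and HSP90 finishes the folding of kinases and receptors. The heat shock factor HSF1 switches on many of these genes when unfolded protein accumulates, and in the ER the unfolded protein response, with Xbp1 as a transcription factor and Hspa5 as its best known target, does the same. Microglia are the macrophages of the brain, and warm enzymatic dissociation is known to change stress genes in freshly isolated microglia.

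RNA came from microglia of female C57BL/6 mice in 4 labelled groups: young (Y, n = 7), young repopulated (Y-re, n = 3), old (O, n = 5) and old repopulated (O-re, n = 8). Microglia need the receptor CSF1R, and its inhibitor PLX5622 was given at 1200 ppm in AIN-76A chow to remove them, after which new cells refill the brain; controls ate AIN-76A chow without the drug. The labels used here state neither ages nor how long the drug was fed nor how long the refilling lasted. The brain was digested for 30 min at 37 °C in every group, per the labels' protocols, which describe both CD11b magnetic separation with culture and, for RNA, cells sorted by flow cytometry. Between 2.4 and 147 ng of RNA went into each stranded poly(A) library, and single 50 nt reads were sequenced. Nothing in the labels says that the libraries of a group are separate animals, so p-values measure the spread between these libraries only.

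Each library held 43.66 to 58.19 M expected counts. Replicate numbers in this report follow the order of library numbers within each group and are not taken from the labels. The titles number the libraries without saying what the numbers mean: numbers 1 to 11 (10 libraries) are young replicates 1 to 3, old 1 and 2 and old repopulated 1 to 5, and numbers 12 to 24 (13 libraries) are all others, including every young repopulated library. All 10 microglia markers were detected in every group, with a sum of 26110 to 31969 CPM (counts per M, scaled by TMM) in young, 23066 to 26800 in young repopulated, 10369 to 26582 in old and 9814 to 30013 in old repopulated libraries. Monocyte and neutrophil markers (10 genes) summed to 31.9 to 288, 124 to 371, 243 to 2168 and 145 to 2934 CPM in those groups, and border-associated macrophage markers (7 genes) to 58.2 to 223, 295 to 411, 182 to 878 and 70.3 to 1235 CPM. T and NK cell markers (9 genes) stayed at or below 4.77 CPM and neuron markers (7 genes) at or below 6.45 CPM in sum. B and plasma cell markers (8 genes) summed to 16.4 to 25.4 CPM in young, 4.58 to 7.31 in young repopulated, 16.2 to 34.1 in old and 6.63 to 75.5 in old repopulated libraries, and astrocyte markers to 84.8 to 179, 77.4 to 108, 61.9 to 128 and 18.7 to 108 CPM. In bulk libraries such as these, a different share of cells of a type and a different amount of RNA per cell cannot be told apart.

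Where the members sit in the genome bears on how they can be counted and on what they share. Hspa1a (chromosome 17, 34969190 to 34972156, minus strand) and Hspa1b (chromosome 17, 34956436 to 34959238, minus strand; GRCm38, GENCODE M21) are neighbouring copies of the stress-inducible HSP70 gene. Of the 50-base stretches of Hspa1a transcripts, 60.35% also occur in transcripts of another gene, and 58.81% occur in Hspa1b. For Hspa1b 62.31% occur in Hspa1a. The division of reads between both copies is therefore uncertain, and their sum was followed as well. Shared stretches also made up 47.49% of Hsp90aa1 (mostly with Gm12346), 39.74% of Hspd1 (mostly with its pseudogene Hspd1-ps3), 38.58% of Hspa8 (mostly with Gm15459), 3.438% of Hsp90ab1 and 0.3805% of Dnajb1, and 0% of Hspa5, Hsph1 and Xbp1.

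Promoter windows from RefSeq (GRCm38.p6, 250 bases before to 50 after each start) matched 7 of the 10 members by symbol; none was given for Hsp90aa1, Hsp90ab1 or Hspa8. Stretches with a match to a heat shock element, searched as GAANNTTC or TTCNNGAA, or to the ER stress response element, searched as CCAAT and CCACG with 9 bases between them, are printed, where the match lies before the start, because these elements are the textbook link between the members. Capitals mark the fixed letters of each match. The heat shock elements read the same on both strands, the ER element was searched on both, and the matches in Hspd1 overlap each other.
Hspa1a and Hspa1b: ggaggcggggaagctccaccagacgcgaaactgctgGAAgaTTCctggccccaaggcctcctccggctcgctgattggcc
Hspd1: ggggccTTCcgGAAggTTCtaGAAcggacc
Hsph1: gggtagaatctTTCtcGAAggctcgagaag
Hspa5: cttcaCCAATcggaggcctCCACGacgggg
The first stretch lies at chr17:34972217-34972296 for Hspa1a and at chr17:34959299-34959378 for Hspa1b (minus strand), bases -140 to -61 from each start, with the match at -104 to -97. These 80 bases are identical in both genes, and the 250 bases before the starts differ at 3 positions (98.8% identical). The Hspd1 stretch (chr1:55088053-55088082, minus strand) holds 3 overlapping matches between -144 and -127 from 1 of the 2 listed starts of the gene. The 250 bases before its other start (chr1:55088244-55088493) held 0 matches. The Hsph1 stretch is chr5:149636351-149636380 (minus strand), with the match at -33 to -26 from 1 of the 2 listed starts and at -54 to -47 from the other. The same windows held 2 more overlapping matches after the start, which are not printed: TTCNNGAA at 36 to 43 and GAANNTTC at 41 to 48 from the first start, or 15 to 22 and 20 to 27 from the other. The Hspa5 stretch is chr2:34772020-34772049 (plus strand), with the match at -65 to -47. In GENCODE M21 the Hspd1, Hsph1 and Hspa5 stretches overlap annotated exons of the same genes, so they precede the RefSeq starts used here but not every annotated start. Those of Hspa1a and Hspa1b overlap no annotated exon. The Dnajb1 and Xbp1 windows held no match, which says only that these letters are not there. Among all 32851 windows of the same length, 15.06% held 1 of the heat shock forms and 0.1187% the ER form.

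On the deposited TPM scale, which corrects for transcript length, the members spanned 2 orders of magnitude. Hspa8, the constitutive HSP70, was the highest at 1720 ± 408 TPM (mean ± SD, n = 23 libraries), followed by Hspa5 (1033 ± 216) and Hsp90ab1 (722 ± 101). Hsp90aa1 stood at 260 ± 56.5 TPM, Xbp1 at 146 ± 20.9, Hspd1 at 95.1 ± 19.4 and Dnajb1 at 42.7 ± 14.0. Hspa1b (30.1 ± 26.1), Hspa1a (29.8 ± 17.9) and Hsph1 (16.7 ± 6.70) were the lowest. From Hspa8 down to Hspd1 each gene was above the next in at least 21 of 23 libraries, whereas Hspa1b was above Hspa1a in only 7 of 23, so these neighbours were not separated. The values from here on are CPM, which do not correct for length and are compared only within a gene.

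**Figure D1:**
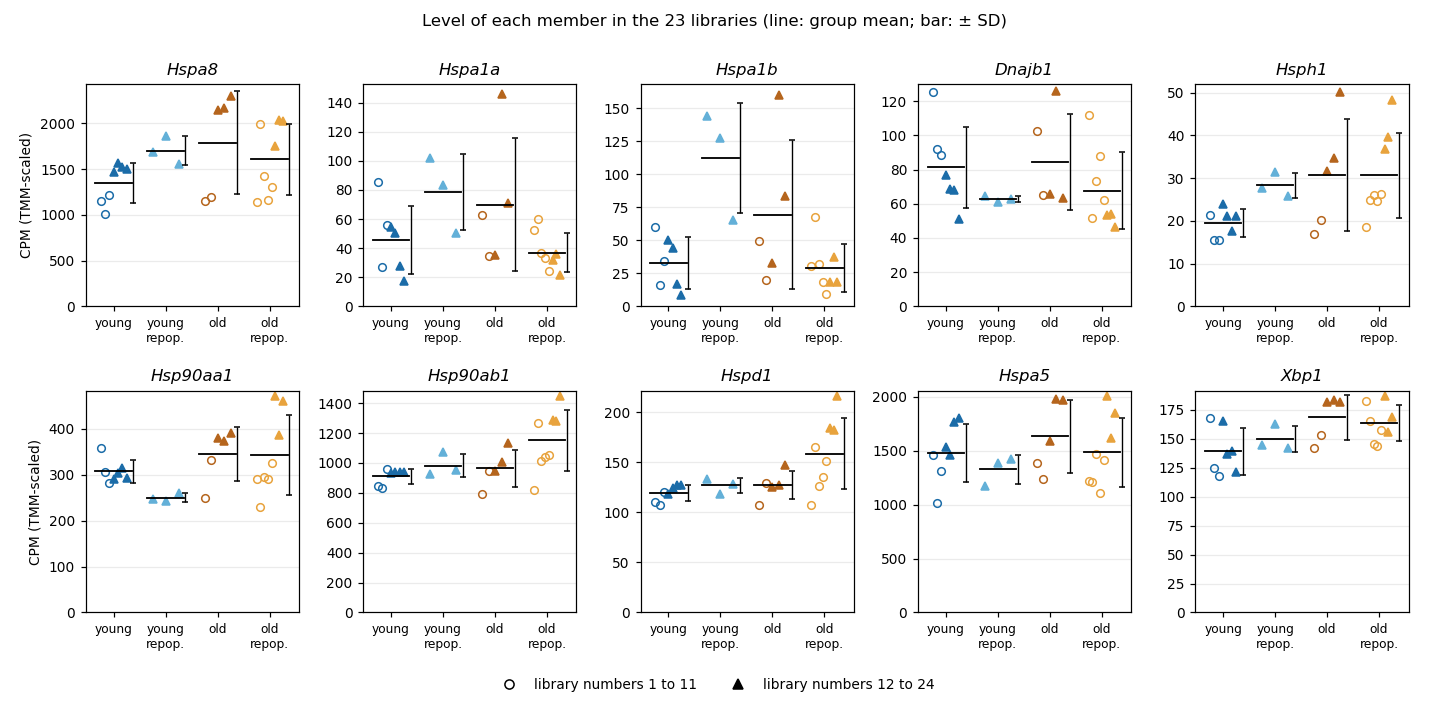
Level of each of the 10 genes (CPM scaled by TMM, linear axis from 0) in every library, by group; horizontal lines are group means, vertical bars ± SD, open circles library numbers 1 to 11 and filled triangles 12 to 24. Hspd1 and Hsp90ab1 reach their highest values in the old repopulated triangles, and Hspa1a and Hspa1b spread widely within every group.

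Old repopulated microglia differed from young microglia in 3 of the 10 genes, all higher: Hspd1, Hsp90ab1 and Hsph1 (edgeR's quasi-likelihood test with Benjamini-Hochberg adjustment over 18720 genes, adjusted p under 0.05). In this comparison 15.2% of all genes tested were called and 9.29% were called higher, so 3 of 10 lies above that share but is a small count. With the filter at a mean of 5 CPM, which all 10 members pass, 24.4% of 10172 genes were called in either direction, 1395 of them higher. Counted in either direction, 3 of 10 is thus nearer the background among genes expressed at such levels. The median change of the 10 members was 0.20 on the log2 scale, against -0.017 for all genes tested. All 3 calls held with DESeq2 and with voom, which called 19.7% and 35.5% of all genes, and none passed a test against a 1.5-fold change. Replicates 6, 7 and 8 are the old repopulated libraries numbered 12 to 24, and their microglia marker sums were the lowest of the group. Without them 0 of 10 were called, with 3.91% of all genes called (edgeR; 1 member, Hspd1, had an unadjusted p under 0.05, as did 19.4% of all genes). That leaves old repopulated libraries numbered 1 to 11 against young libraries of which 4 of 7 are numbered 12 to 24. Within numbers 1 to 11 alone 0 members were called, but only 0.0107% of all genes were, so this count says little about the members.

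Hspd1 encodes HSP60, the chaperonin that folds imported proteins in the mitochondrial matrix. Its lowest, median and highest values were 107, 119.9 and 127 CPM in young and 108, 158 and 216 CPM in old repopulated libraries. The old libraries held 107, 129, 125, 127 and 147 CPM and the young repopulated 134, 118 and 129 CPM. Of the 8 old repopulated libraries 6 were above every young library, and replicates 6, 7 and 8 were the highest of all 23. The groups overlapped through replicates 1 and 3. The log2 fold change from young was 0.41 ± 0.11 (SE; adjusted p 0.0166), and it was called without any 1 of the 23 libraries. Against old libraries Hspd1 differed by 0.32 ± 0.12 (adjusted p 0.321), and old against young by 0.094 ± 0.13 (0.800), neither of which passed.

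Hsp90ab1, the constitutive cytosolic HSP90, ran in parallel. It measured 835, 937 and 956 CPM (lowest, median and highest) in young and 819.6, 1159 and 1451 CPM in old repopulated libraries. Old libraries gave 791, 946, 947, 1004 and 1131 CPM and young repopulated 926, 1070.1 and 951 CPM. The young libraries were tightly grouped, and 7 of 8 old repopulated libraries were above all of them, while replicate 1, at 820 CPM, was below all of them. The change from young was 0.34 ± 0.10 (adjusted p 0.0300). The call was lost with upper-quartile scaling (adjusted p 0.0600), without any filter (0.0562), and without 1 of old repopulated replicates 2, 6 and 8 or young replicates 1 and 2 (0.0502 to 0.0683).

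Hsph1 encodes HSP110, which exchanges the nucleotide of HSP70 and helps to pull apart aggregates. It was low, with 15.6, 21.1 and 24.0 CPM (lowest, median and highest) in young and 18.6, 26.2 and 48.4 CPM in old repopulated libraries. The old libraries held 16.9, 20.3, 31.6, 34.6 and 50.2 CPM, and the young repopulated 27.6, 31.5 and 25.8 CPM. In the old group replicates 1 and 2 lay within the young range and replicates 3, 4 and 5 above it, as did all 3 young repopulated libraries. Old repopulated libraries were above all young ones in 7 of 8 cases, and the change was 0.65 ± 0.21 (adjusted p 0.0358). That call was lost with upper-quartile scaling (0.0503) and without 1 of old repopulated replicates 6, 7 and 8 or young replicates 2, 3, 6 and 7 (0.0505 to 0.0867).

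The size of these 3 changes differed between the runs of library numbers. Within numbers 12 to 24, the old repopulated libraries exceeded the young by 0.65 ± 0.085 (Hspd1, adjusted p 0.000148), 0.52 ± 0.087 (Hsp90ab1, 0.000576) and 1.0 ± 0.16 (Hsph1, 0.000533), but 41.1% of all genes were called there. Within numbers 1 to 11 the changes were 0.29 ± 0.15 (adjusted p 0.478), 0.24 ± 0.16 (0.579) and 0.47 ± 0.17 (0.406), where 0.0107% of all genes were called. Old repopulated replicates 6, 7 and 8, which gave the highest Hspd1, Hsp90ab1 and Hsph1 of their group, had microglia marker sums of 10608, 14526 and 9814 CPM, with 2934, 814 and 1122 CPM of monocyte and neutrophil markers and 1235, 665 and 1191 CPM of border-associated macrophage markers. Their B and plasma cell markers summed to 75.5, 28 and 48.1 CPM and their astrocyte markers to 35.0, 28.1 and 18.7 CPM. Replicate 1, the lowest for all 3 genes, had 30013, 145 and 70.3 CPM of the microglia, monocyte and neutrophil, and border macrophage lists. Marker sums and the 3 genes did not go together in every library. Old replicate 3 had 10369, 2168 and 878 CPM of the same lists, with Hspd1 at 125 CPM and Hsp90ab1 at 947 CPM, both within the young range, and Hsph1 at 31.6 CPM, above it. Old repopulated replicate 4 had 26962, 158 and 164 CPM, its microglia sum within the young range, and was above every young library for all 3 genes. Replicates 5 and 2 were also above every young library for all 3 genes, but with microglia sums below the young range. Replicate 5 had 15169.6, 1293 and 648 CPM, with Hspd1 at 151 CPM, Hsp90ab1 at 1051 CPM and Hsph1 at 26.3 CPM. Replicate 2 had 16698, 272 and 809.7 CPM, with Hspd1 at 165 CPM and Hsp90ab1 at 1268 CPM. Without replicates 6, 7 and 8, a choice made after seeing the data, the changes were 0.20 ± 0.092 (adjusted p 0.236), 0.18 ± 0.10 (0.316) and 0.31 ± 0.19 (0.419), and none was called. The part of cell composition in the 3 calls was not tested.

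**Figure D2:**
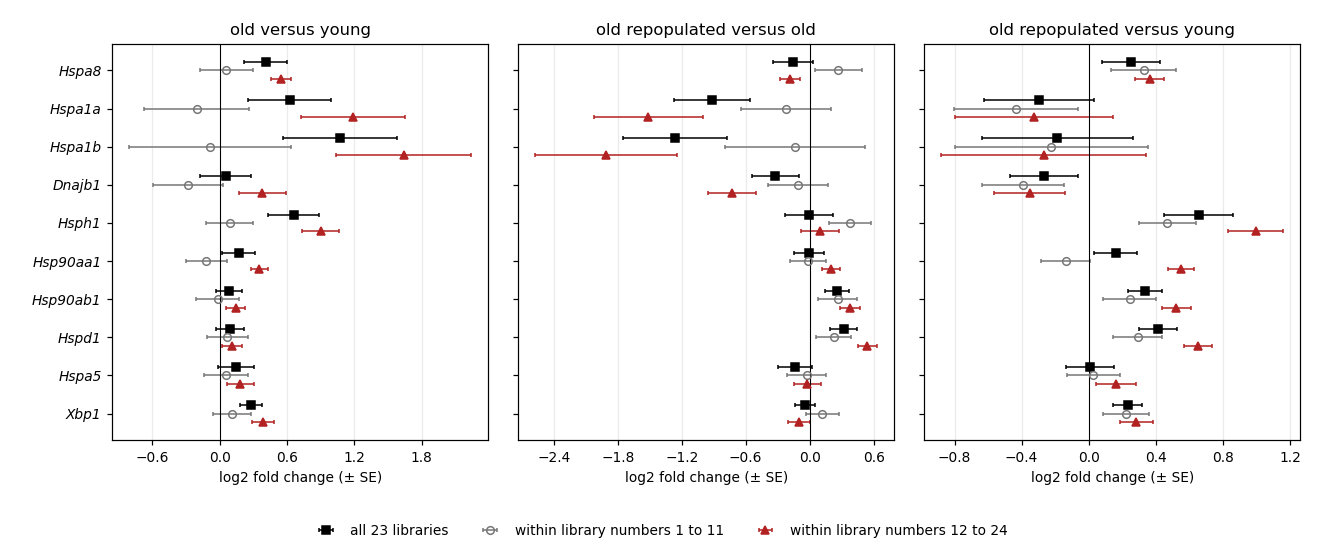
Log2 fold change (± SE) of each gene in 3 comparisons, from all 23 libraries (squares), from library numbers 1 to 11 (circles) and from 12 to 24 (triangles). For Hspd1, Hsp90ab1 and Hsph1 in old repopulated versus young all 3 estimates are above 0, and most differences are larger within numbers 12 to 24.

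The other genes of the cytosolic HSP70 system did not pass in that comparison. Hspa8, the constitutive HSP70, held 1009, 1466 and 1571 CPM (lowest, median and highest) in young and 1141, 1589 and 2041 CPM in old repopulated libraries, a change of 0.25 ± 0.17 (adjusted p 0.337). Its old values were 1147, 1199.7, 2142, 2164 and 2299 CPM and its young repopulated values 1689, 1862 and 1553 CPM. Replicates 1 and 2 of the old group lay within the young range and replicates 3, 4 and 5 above it. Old against young gave 0.41 ± 0.19 (0.308) over all libraries, 0.55 ± 0.086 (adjusted p 0.00148) within numbers 12 to 24 and 0.058 ± 0.24 (1) within 1 to 11.

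Hspa1a and Hspa1b, the inducible HSP70 copies, varied most between libraries of a group. Hspa1b measured 8.41, 34.4 and 59.8 CPM (lowest, median and highest) in young, 144, 127 and 65.6 CPM in young repopulated, 49.6, 19.8, 32.6, 160.3 and 83.8 CPM in old, and 9.20, 24.4 and 67.5 CPM in old repopulated libraries. All 3 young repopulated libraries were above all 7 young ones, while old libraries spread from within the young range to the highest value of all, in replicate 4. Hspa1b differed by 1.77 ± 0.57 in young repopulated against young libraries, which did not pass (adjusted p 0.126); it passed with voom (0.0146; 13.8% of all genes called) and with only those 2 groups in the fit (0.0397; 7.5% called). Old repopulated against old libraries gave -1.26 ± 0.49 (0.314). The difference between both repopulation effects, tested directly, was -3.03 ± 0.75 (unadjusted p 0.000516, adjusted p 0.336) and was not called.

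Hspa1a showed 17.1, 50.5 and 85.5 CPM (lowest, median and highest) in young, 102, 83.3 and 50.2 CPM in young repopulated, 62.7, 34.4, 35.6, 146 and 71.0 CPM in old, and 21.5, 34.5 and 60.2 CPM in old repopulated libraries. The groups overlapped throughout. Its change was 0.79 ± 0.43 (adjusted p 0.396) in young repopulated against young and -0.92 ± 0.36 (0.317) in old repopulated against old libraries. With the counts of both copies summed, the same comparisons gave 1.29 ± 0.48 (0.195) and -1.08 ± 0.41 (0.302), and the difference of the effects -2.37 ± 0.63 (0.360). Within numbers 12 to 24, where 8.87% of all genes were called for that difference, Hspa1a (-2.61 ± 0.69, adjusted p 0.0361) and Hspa1b (-3.84 ± 0.90, 0.0248) were called, together with Hsp90aa1 (0.44 ± 0.11, 0.0348) and Hspd1 (0.48 ± 0.13, 0.0354).

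The 2 copies also differed in their share. Hspa1b made up 56.6% to 60.4% of the summed CPM of both in the 3 young repopulated libraries, against 33% to 48.0% in young, 36.5% to 54.1% in old and 27.3% to 52.9% in old repopulated libraries. The young repopulated shares lay above all 20 others. All 3 of these libraries are numbered 12 to 24, and the share was also higher there in old libraries (51.4% ± 3.27, SD, n = 3, against 40.3% ± 5.42, n = 2), while in young libraries it was 41.4% ± 7.06 (n = 4) against 38.9% ± 1.96 (n = 3). This share was looked at after the values were seen and is given with no test, and it depends on how the authors' counting divided shared reads.

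**Figure D3:**
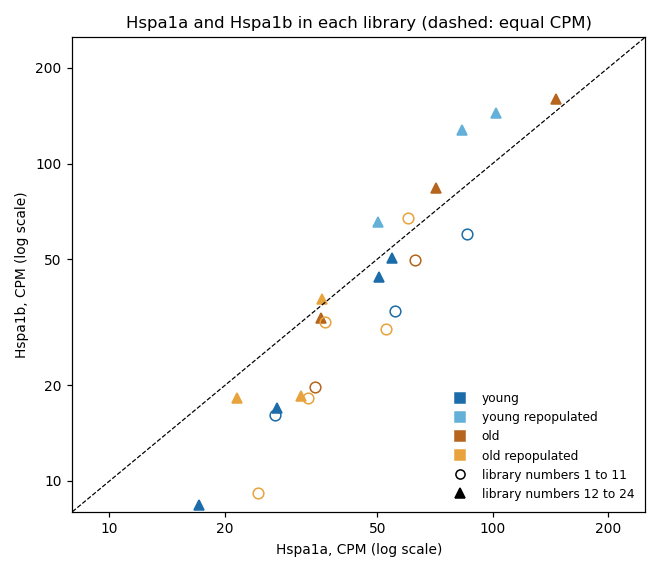
CPM of Hspa1b against Hspa1a in each of the 23 libraries (both axes logarithmic; colour: group; circles: library numbers 1 to 11, triangles: 12 to 24; dashed line: equal CPM). The 3 young repopulated libraries lie above the dashed line, with Hspa1b at 65.6 to 144 CPM.

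Dnajb1, the HSP40 that delivers substrates to HSP70, measured 50.8, 77.0 and 125 CPM (lowest, median and highest) in young and 46.4, 58.1 and 112 CPM in old repopulated libraries. Old libraries gave 103, 65.2, 65.8, 126 and 63.6 CPM and young repopulated 64.6, 60.8 and 63.1 CPM. Its 3 highest values were in young replicate 1, old replicate 4 and old repopulated replicate 1, so no group stood apart. No group comparison passed: old against young gave 0.055 ± 0.23 (adjusted p 0.952), old repopulated against old -0.32 ± 0.22 (0.693), young repopulated against young -0.37 ± 0.27 (0.577) and old repopulated against young -0.27 ± 0.20 (0.395).

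Hsp90aa1, the stress-inducible cytosolic HSP90, held 282, 303 and 358 CPM (lowest, median and highest) in young and 229, 309 and 471 CPM in old repopulated libraries. The young repopulated libraries measured 247, 242 and 261 CPM, all below every young library, and the old libraries 249, 332, 379, 373 and 391 CPM. Young repopulated against young libraries gave -0.30 ± 0.18 (adjusted p 0.453) with all groups in the fit and passed with only those 2 groups (0.0454), where 7.5% of all genes were called. Old repopulated against young gave 0.16 ± 0.13 (0.434), with -0.14 ± 0.14 (0.779) within numbers 1 to 11 and 0.55 ± 0.077 (0.000220) within 12 to 24, with opposite signs in the runs.

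Hspa5, the ER HSP70 also called BiP, held 1013, 1464 and 1808 CPM (lowest, median and highest) in young and 1106, 1442 and 2009 CPM in old repopulated libraries. It held 1384, 1242, 1596, 1984 and 1971 CPM in old and 1173, 1391 and 1424 CPM in young repopulated libraries. The groups overlapped broadly, and 9 of the 13 libraries numbered 12 to 24 were above all 10 numbered 1 to 11. No comparison between groups passed: old repopulated against young gave 0.0076 ± 0.14 (adjusted p 0.978), old against young 0.14 ± 0.16 (0.747), and young repopulated against young -0.15 ± 0.19 (0.787).

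Xbp1, a transcription factor of the unfolded protein response, varied least, with a ratio of 1.58 between its highest and lowest library. It measured 118, 137 and 167 CPM (lowest, median and highest) in young and 144, 162 and 187 CPM in old repopulated libraries. Old libraries held 142, 153, 182, 183 and 182 CPM, and young repopulated 145, 162 and 142 CPM. Old replicates 3, 4 and 5 were above all young libraries and replicates 1 and 2 within their range. Xbp1 missed the threshold in old against young (0.28 ± 0.10, adjusted p 0.154) and in old repopulated against young libraries (0.23 ± 0.088, 0.0759). It passed in the first without old replicate 1 (0.0478) and with voom (0.0229), and in the second with voom (0.0458), with the library number run as a term (0.0301; 24.5% of all genes called), and without 1 of old replicate 1 and young replicates 1 and 4 (0.0378 to 0.0470). Total Xbp1 RNA does not show how much of it is spliced to the active form.

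In the remaining comparisons no member was called over all libraries. In old against young microglia edgeR called 0 of 10, with 2.83% of all genes called; 4 members (Hsph1, Xbp1, Hspa8 and Hspa1b) had an unadjusted p under 0.05, against 15.3% of all genes, DESeq2 called 0, and voom called Hsph1 (0.0374) and Xbp1 (0.0229), beside 12.6% of all genes, so 2 of 10 is near its background. Hsph1 (0.66 ± 0.23, adjusted p 0.142) passed without old replicate 1 (0.0336), with the run as a term (0.0459; 3.3% of all genes called) and within numbers 12 to 24 (0.90 ± 0.16, 0.00329), where 15.7% of all genes were called, and stood at 0.088 ± 0.21 (1) within 1 to 11, where 0.00533% were. In old repopulated against old microglia 0 of 10 were called by edgeR, DESeq2 and voom, with 0.278% of all genes called by edgeR, and 4 members (Hspa1a, Hspa1b, Hspd1 and Hsp90ab1) had an unadjusted p under 0.05 against 10.4% of all genes. Within numbers 12 to 24, where 12.7% of all genes were called, Hspd1 (0.54 ± 0.092, adjusted p 0.00534) and Hsp90ab1 (0.38 ± 0.093, 0.0223) passed.

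In young repopulated against young microglia edgeR called 0 of 10 (1.34% of all genes), 1 member, Hspa1b, had an unadjusted p under 0.05 (15.1% of all genes), DESeq2 called 0 and voom called Hspa1b. The groups did not overlap for 3 members, Hspa1b and Hsph1 higher and Hsp90aa1 lower, against 12.1% of all genes. Hsph1 differed by 0.54 ± 0.27 (adjusted p 0.346). All young repopulated libraries carry numbers 12 to 24, and within those numbers, where 9.3% of all genes were called, the changes were 1.94 ± 0.60 (0.0641) for Hspa1b, 0.46 ± 0.16 (0.0967) for Hsph1 and -0.24 ± 0.078 (0.0772) for Hsp90aa1. In old repopulated against young repopulated microglia 0 of 10 were called, as were 0% of all genes; 4 members (Hspa1a, Hspa1b, Hsp90aa1 and Hspd1) had an unadjusted p under 0.05 (11.7% of all genes), DESeq2 called 0, and voom called Hsp90aa1 (0.0115), Hspd1 (0.0218), Hsp90ab1 (0.0236) and Hspa1b (0.0309), beside 17% of all genes. Hspa1b stood at -1.96 ± 0.55 there (adjusted p 0.373) and Hsp90aa1 at 0.46 ± 0.17 (0.393). Within numbers 12 to 24, where 36.3% of all genes were called, 7 members were. For the difference between both repopulation effects 0 members and 0% of all genes were called, and Hspa1a and Hspa1b had an unadjusted p under 0.05, against 8.24% of all genes; DESeq2 and voom called 0 members.

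The run of library numbers, fitted beside the group, was called for more members than any comparison of groups over all libraries. In all, 6 genes were higher in numbers 12 to 24 than in 1 to 11, against 10.3% of all genes called and 5.66% called higher. Hsph1 differed by 0.66 ± 0.12 (adjusted p 0.00248), Hspa8 by 0.56 ± 0.10 (0.00175) and Hspa5 by 0.46 ± 0.081 (0.00225). Hsp90aa1 (0.32 ± 0.092, 0.0328), Hspd1 (0.29 ± 0.076, 0.0196) and Hsp90ab1 (0.24 ± 0.073, 0.0408) differed less. With upper-quartile scaling Hsp90aa1 (0.0544) and Hsp90ab1 (0.0753) were not called, nor was Hsp90ab1 without any filter (0.0771). All 3 of these calls were lost without old repopulated replicate 8 (0.0591 to 0.111). The call of Hsp90aa1 was also lost without 1 of old replicates 1 and 5 or old repopulated replicates 3, 4, 6 and 7 (0.0518 to 0.0916), and that of Hsp90ab1 without 1 of these or of young replicates 1 and 6 and young repopulated replicate 3 (0.0511 to 0.0823). Dnajb1 stood at -0.45 ± 0.16 (0.0650), on the other side of 0, and was called lower without 1 of old replicates 2 and 4 and old repopulated replicate 2 (0.00720 to 0.0434), with the filter at a mean of 5 CPM (0.0393; 22% of all genes called), and by DESeq2 (0.0249; 16.2%) and voom (0.0201; 21.7%). Xbp1 (0.13 ± 0.073, 0.259), Hspa1a (-0.22 ± 0.30, 0.686) and Hspa1b (0.072 ± 0.43, 0.939) did not pass.

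Correlations of log2 CPM were computed for all 45 pairs over 23 libraries after subtracting group means, with a permutation test that shuffles libraries within groups (two-sided) and adjustment over the 45 pairs. In all, 18 pairs passed, 15 positive and 3 negative. With the run of library numbers removed as well, 5 passed, and these 5 were among the 18. Correlations given within a run of library numbers used the group means of that run only.

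Hspa1a and Hspa1b had the highest correlation (Pearson's r 0.93, Spearman's rho 0.90, both p 1e-05, the smallest that 100000 permutations can give; adjusted p 0.000225 and 0.00045). It was 0.90 without the 2 libraries farthest from the median, 0.93 within numbers 1 to 11 and 0.97 within 12 to 24. These copies share reads, as given above. Hsp90ab1 and Hspd1 followed (r 0.91, p 3e-05, adjusted p 0.00045; rho 0.83, p 0.00032, adjusted 0.00288), with r 0.83 without the 2 farthest libraries, 0.95 within numbers 1 to 11 and 0.48 within 12 to 24. Hsp90ab1 and Hsph1 had r 0.79 (p 8e-05, adjusted 0.00072; rho 0.71, p 0.00148, adjusted 0.00666), 0.71 without the 2 farthest, and 0.50 and 0.82 within the runs. These 3 pairs passed with the run removed (r 0.95, 0.85 and 0.60).

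Dnajb1 was correlated positively with Hspa1a and negatively with Hspd1. With Hspa1a it had r 0.62 (p 0.00441, adjusted 0.0142; rho 0.52, p 0.0189, adjusted 0.0472), 0.46 without the 2 farthest libraries, 0.37 within numbers 1 to 11 and 0.80 within 12 to 24. With Hspd1 it had r -0.75 (p 5e-05, adjusted 0.000562; rho -0.78, p 5e-05, adjusted 0.00075), -0.65 without the 2 farthest, -0.88 within 1 to 11 and -0.42 within 12 to 24. Both passed with the run removed (0.64 and -0.62). The other negative pairs, Dnajb1 with Hsp90ab1 (-0.70) and with Hspa8 (-0.56), did not pass then (adjusted p 0.0751 and 0.578).

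The mean of 20 immediate early genes, which respond quickly to stimulation and to tissue dissociation, was set beside each member in the same way (10 relations). These genes summed to 10872 to 29941 CPM across libraries. Dnajb1 followed them (r 0.85, p 1e-05, adjusted 0.0001; rho 0.87, p 1e-05, adjusted 0.0001), with r 0.83 without the 2 farthest libraries, 0.95 within numbers 1 to 11, 0.78 within 12 to 24, and 0.81 with the run removed (adjusted p 0.0003). Hspa1a and Hspa1b did not pass (r 0.40, adjusted p 0.0802; rho 0.41, adjusted 0.100, and r 0.20, adjusted p 0.419; rho 0.18, adjusted 0.453).

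Hspd1 and Hsp90ab1 ran against the immediate early genes over all libraries, but not in both runs. Hspd1 had r -0.79 (p 0.00043, adjusted 0.00143; rho -0.72, p 0.00199, adjusted 0.00687), -0.65 without the 2 farthest libraries, -0.96 within numbers 1 to 11 and -0.083 within 12 to 24. Hsp90ab1 had r -0.79 (p 0.0004, adjusted 0.00143; rho -0.74, p 0.00206, adjusted 0.00687), -0.64 without the 2 farthest, -0.92 within 1 to 11 and -0.19 within 12 to 24. With group means taken within numbers 12 to 24 neither relation held, although both passed over all libraries with the run removed (-0.73 and -0.72, adjusted p 0.00433). Hspa8 (r -0.62, p 0.00896, adjusted 0.0224; rho -0.63, p 0.00944, adjusted 0.0236) no longer passed with the run removed (adjusted p 0.157). In the old repopulated group the library with the most immediate early gene RNA was replicate 1 (29941 CPM), which had the lowest Hspd1, and the one with the least was replicate 8 (10872 CPM), which had the highest. Replicates 1 and 8 also had the highest and lowest microglia marker sums of the group (30013 and 9814 CPM). The part of cell composition in these relations was not tested.

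**Figure D4:**
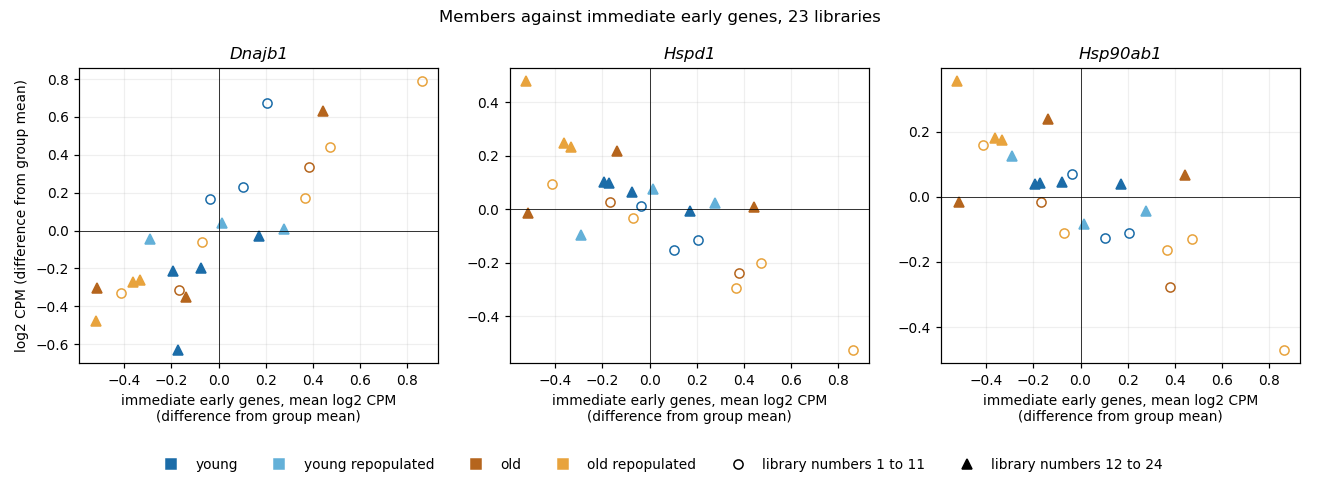
Dnajb1, Hspd1 and Hsp90ab1 against the mean of 20 immediate early genes in the 23 libraries, each as the difference of log2 CPM from its group mean (colour: group; circles: library numbers 1 to 11, triangles: 12 to 24). Dnajb1 climbs with the early genes in circles and triangles, while Hspd1 and Hsp90ab1 fall, less steeply in the triangles. The group means plotted are over all 23 libraries. With group means taken within each run instead, r of Hspd1 and Hsp90ab1 was -0.96 and -0.92 in the circles. It was -0.083 and -0.19 in the triangles.

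Other genes of the folding machinery were taken from 8 lists of 106 genes in all, of which 99 were tested. In old repopulated against young microglia, the list with the largest share called was the cytosolic chaperonin TRiC/CCT with prefoldin, which folds actin and tubulin: 7 of 14 were higher and 0 lower, all 14 values were above 0, and the median change was 0.28, against -0.017 for all genes tested and 9.29% of them called higher. Cct5 rose from 137 ± 7.46 to 183 ± 39.5 CPM (mean ± SD; 0.43 ± 0.11, adjusted p 0.0106) and Cct2 from 201 ± 8.34 to 243 ± 41.0 (0.27 ± 0.087, 0.0371). A further 2 of the list, Cct6a (0.42 ± 0.13, 0.0353) and Pfdn4 (0.48 ± 0.14, 0.0268), rose as well. Without old repopulated replicates 6, 7 and 8, edgeR called 0 of the 14 (3.91% of all genes called) and the median was 0.13. With upper-quartile scaling, where 14.4% of all genes were called, 2 of the 14 were called (Cct5 and Pfdn4), which is near that share.

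Of the 12 HSP90 co-chaperones, 5 were higher and 0 lower, with a median of 0.27. The immunophilin Fkbp4 rose from 49.0 ± 4.62 to 71.7 ± 12.1 CPM (0.55 ± 0.11, adjusted p 0.00202), and Ahsa1, which stimulates the HSP90 ATPase, from 54.3 ± 1.58 to 77.7 ± 18.4 (0.52 ± 0.13, 0.00859). Ptges3 (0.34 ± 0.094, 0.0187), known as p23, rose too. Without old repopulated replicates 6, 7 and 8, 2 of the 12 were called, Fkbp4 among them. The mitochondrial list had 2 of 10 higher: Hspa9, the mitochondrial HSP70 (0.52 ± 0.12, 0.00555), and its HSP40 partner Dnaja3 (0.35 ± 0.079, 0.00573). The cytosolic HSP70 and HSP40 list had 2 of 19 higher, Hspa4l (0.80 ± 0.24, 0.0258), a relative of Hsph1, and Hspbp1 (0.46 ± 0.13, 0.0195), a nucleotide exchange factor of HSP70. Both lists had 0 lower. The mitochondrial list had 20% called and the cytosolic list 10.5%, against 15.2% of all genes, so the cytosolic list is below that share. Without the same 3 libraries, Dnaja3 was called in the first and 0 in the second.

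Small heat shock proteins hold unfolded proteins without ATP. Of 8 genes 5 were tested, all 5 values were below 0, and 1 was called lower: Hspb1 was at 0.738 ± 0.439 CPM in old repopulated and 3.02 ± 1.48 in young libraries (-2.03 ± 0.67, adjusted p 0.042). It was not called without replicates 6, 7 and 8. Of 3 tested heat shock factors 0 were called, and the smallest unadjusted p belonged to Hsf4 (1.01 ± 0.368 against 0.560 ± 0.362 CPM; 0.84 ± 0.55, adjusted p 0.316).

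Of 17 ER chaperones and oxidoreductases in the tables, 1 was higher in old repopulated than in young microglia: Hyou1, the ER counterpart of HSP110, rose from 149 ± 16.6 to 218 ± 48.5 CPM (0.55 ± 0.14, adjusted p 0.00898). That is 5.88% of this list, below the 15.2% of all genes called. Of 19 tested genes of the unfolded protein response and ER-associated degradation, 3 were higher and 1 lower, with a median of -0.053. Asparagine synthetase (Asns), a target of the ATF4 branch, rose from 2.50 ± 0.387 to 11.1 ± 7.16 CPM (2.15 ± 0.38, 0.00112), and the sensors Ern1 (0.69 ± 0.18, 0.0127) and Atf6 (0.40 ± 0.10, 0.0115) rose. Edem1, which sorts misfolded glycoproteins for degradation and is a target of Xbp1, fell from 605 ± 48.6 to 474 ± 50.7 CPM (-0.35 ± 0.078, 0.00487). Without replicates 6, 7 and 8, Asns and Edem1 were called, and Hyou1, Ern1 and Atf6 were not. In all, 22 of the 99 list genes (22.2%) were called over all libraries, against 15.2% of all genes. With the filter at a mean of 5 CPM, which not every list gene passes, 24.4% of genes were called. The list share under that filter is not given, so the 22.2% cannot be set directly against it. Without these 3 libraries 5 (5.05%) were called, against 3.91%, which is near the background. The marker sums of these libraries are given above, and their part in the list results was not tested.

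**Figure D5:**
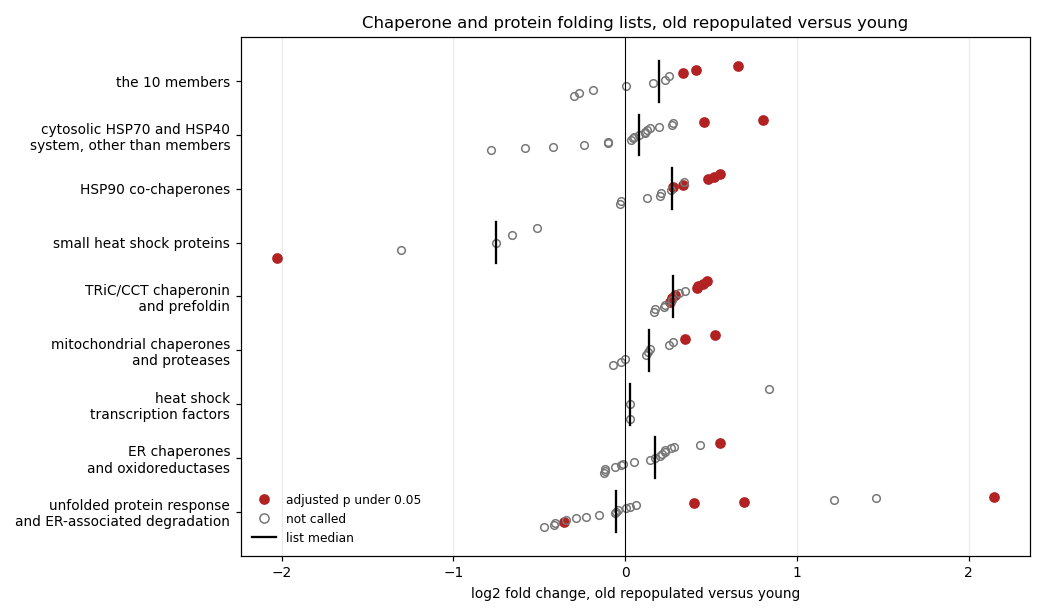
Log2 fold change of the 10 members and of each tested gene of 8 lists in old repopulated versus young microglia; filled points passed an adjusted p of 0.05 and black lines are list medians. All 14 TRiC/CCT and prefoldin values are above 0, with 7 called, and all 5 small heat shock protein values are below 0, with 1 called.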

How the data were processed

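Poly(A) RNA sequencing of 23 libraries was re-analysed from 1 deposited table per library. The authors deposited expected counts, estimates of reads per gene, and TPM values; the submitters' processing notes name GRCm38, FastQC 0.11.5, STAR, RSEM and limma without their roles, and whether counting used strand was not given in the sources used here. Expected counts were rounded, filtered by filterByExpr (18720 genes) and scaled by TMM in R 4.3.3 with edgeR 4.0.16; depth was 43.66 to 58.19 M per library. Groups follow the labels. One quasi-likelihood model over all libraries gave 6 group contrasts, and a second, with the run of library numbers beside the group, gave the run effect; calls are at a Benjamini-Hochberg adjusted p under 0.05 over all genes. Alternatives were RLE and upper-quartile scaling, voom with quality weights (limma 3.58.1), DESeq2 1.42.0, a filter at a mean of 5 CPM or none at all, the groups compared only, the run as a term, each run alone, a test against 1.5-fold, each library left out, and the summed Hspa1a and Hspa1b counts; leaving out old repopulated replicates 6 to 8 was added after seeing the data. Correlations used log2 CPM with a prior count of 2. The fit was also run on simulated counts for old against young. These held no run or cell composition effect, so they do not test how such effects bear on the calls. All 10 members are named; from each list up to 4 called genes with the smallest p, or the gene with the smallest unadjusted p, and for Hspa1b, Hspa5 and Hspd1 the 4 genes of at least 5 CPM with the most similar pattern. The members, lists and tests were chosen with earlier results of these data known. Ero1a and Ero1b were not analysed here, and 1 gene that the list counts include is not reported by name.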

Additional observations from a re-analysis of the deposited data

How the results depend on the processing

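The count of members called depended most on the libraries. Percentages in brackets are the share of all genes called in the same setting. In old repopulated against young it was 3 over all libraries (15.2%), 1 with upper-quartile scaling (14.4%) and 5 with the library number run as a term (24.5%). It was 0 within numbers 1 to 11 (0.0107%), 6 within 12 to 24 (41.1%) and 0 against a 1.5-fold change (2.91%). Without old repopulated replicates 6 to 8, a setting added after seeing the data, it was 0 (3.91%). Without 1 library it was 1 to 4 (10.5% to 25.7%), the lowest when young replicate 2, or replicate 6 or 8 of the old repopulated group, was missing. In old against young 0 became 2 with voom (12.6%), 1 with the run as a term (3.3%) and 4 within 12 to 24 (15.7%). It became 0 to 2 without 1 library, with 2 without old replicate 1 (5.06%). Old repopulated against old went from 0 to 2 within 12 to 24 (12.7%). In young repopulated against young 0 became 1 with voom (13.8% of all genes called) and 3 with only those groups (7.5%). In old repopulated against young repopulated 0 became 4 with voom (17%), 2 with the run as a term (4.52%) and 7 within 12 to 24 (36.3%). The difference of effects went from 0 to 4 within 12 to 24 (8.87%). For the run, 6 became 3 to 7 without 1 library, with 3 without old repopulated replicate 8 (4.63%). It became 4 with upper-quartile scaling (9.64%), 5 without a filter (4.71%) and 7 at a mean of at least 5 CPM (22%). Correlated pairs went from 18 to 5 with the run removed.

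Compared with the fit over all libraries, signs changed only where neither value was called. Between the runs, Hsp90aa1 in old repopulated against young was called higher within 12 to 24. It had the opposite sign, and was not called, within 1 to 11. Within numbers 1 to 11, old against young was -0.12 for Hsp90aa1, -0.020 for Hsp90ab1, -0.21 for Hspa1a, -0.084 for Hspa1b and -0.28 for Dnajb1. Old repopulated against old turned for Hsp90aa1 (0.000755 with voom, 0.052 with the run as a term, 0.20 within 12 to 24), Hspa8 (0.0080 with the run, 0.27 within 1 to 11), Hsph1 (0.037 with voom, 0.17 with the run, 0.38 within 1 to 11, 0.097 within 12 to 24) and Xbp1 (0.12 within 1 to 11). Young repopulated against young turned for Hspd1 with the run (-0.035). Old repopulated against young turned for Hsp90aa1 (-0.14 within 1 to 11, -0.11 without replicates 6 to 8) and Hspa5 (-0.00078 with RLE and with DESeq2, -0.061 with upper-quartile scaling, -0.031 at a mean of at least 5 CPM, -0.021 with voom, -0.21 without replicates 6 to 8). Old repopulated against young repopulated turned for Hspa8 (0.041 with voom, 0.25 with the run, 0.17 within 12 to 24), Dnajb1 (-0.088, -0.20 and -0.31 in the same order), Hspa5 (-0.054) and Hsph1 (-0.24), both without replicates 6 to 8. The difference of effects turned for Dnajb1 (-0.28 with voom, -0.32 with the run, -0.69 within 12 to 24) and Hspa5 (-0.19 without replicates 6 to 8), and for the run the sum of both Hspa1 copies stood at -0.091, against 0.072 for Hspa1b alone.

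Without 1 library, values on both sides of 0 were found for Dnajb1 (-0.030 to 0.17 in old repopulated against young repopulated, -0.13 to 0.19 in old against young, -0.10 to 0.24 for the difference of effects), Hsp90aa1 (-0.10 to 0.060) and Hsph1 (-0.16 to 0.25) in old repopulated against old, Hspa1b (-0.13 to 0.30 for the run, -0.49 to 0.024 in old repopulated against young), Hspa5 (-0.067 to 0.071 in old repopulated against young, -0.082 to 0.096 for the difference) and Hsph1 (-0.0087 to 0.20 in old repopulated against young repopulated). The cause of these changes was not tested. No paired analysis was possible because the labels give no replicate numbers and no library number occurs in more than 1 group. Numbers 1 to 11 hold no young repopulated library, and the difference of effects uses all 4 groups, so those alternatives gave no value. Depth was high for all members, but Hspa1a and Hspa1b share reads. No scaling moved the median of all genes by more than 0.1.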

Other observations

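Between the runs of library numbers the ER list changed more widely than any other list: 14 of 17 ER chaperones and oxidoreductases were higher in numbers 12 to 24 than in 1 to 11 and 0 lower, with a median of 0.40 against 0.0079 for all genes tested, where 10.3% of genes were called. The disulfide isomerase Pdia6 stood at 387 ± 107 CPM (mean ± SD, n = 13) against 255 ± 45.5 (n = 10), a log2 difference of 0.78 ± 0.097 (edgeR adjusted p 0.000137), and Pdia4 at 204 ± 37.8 against 146 ± 20.8 (0.62 ± 0.076, 0.000137). The lectin chaperone Calr (0.54 ± 0.077, 0.000437) and its partner isomerase Pdia3 (0.42 ± 0.063, 0.000609) were higher as well. In the cytosolic HSP70 and HSP40 list 4 of 19 were higher and 3 lower; Hspa4, a relative of Hsph1, was higher (0.35 ± 0.061, 0.0021), as was Dnajb6 (0.21 ± 0.048, 0.0124), and the HSP40 genes Dnajb4 (-0.72 ± 0.12, 0.0016) and Dnajb5 (-0.59 ± 0.095, 0.00121) were lower. HSP90 co-chaperones had 5 of 12 higher, led by Stip1 (0.46 ± 0.072, 0.00101), which links HSP70 to HSP90, with Ahsa1 (0.34 ± 0.082, 0.0132) and Chordc1 (0.27 ± 0.080, 0.033), and 1 lower, the glucocorticoid-responsive Fkbp5 (-0.93 ± 0.28, 0.0368). TRiC/CCT and prefoldin had 4 of 14 higher (Cct3, Cct8, Cct7 and Cct6a), the mitochondrial list 2 of 10 (Grpel1 and Hspa9) and the unfolded protein response list 2 of 19 (Ern1 and Sel1l), each with 0 lower. Small heat shock proteins and heat shock factors had 0 called (edgeR; Hspb3 -0.61 ± 0.26, adjusted p 0.128, and Hsf1 0.11 ± 0.067, 0.295, had the smallest unadjusted p). What the library numbers stand for is not given in the sources used here.

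Young repopulated microglia differed from young microglia in 2 of the 99 list genes, where 1.34% of all genes were called. The ER stress sensor Atf6 was at 161 ± 6.57 CPM (n = 3) against 112 ± 8.59 (n = 7), a change of 0.53 ± 0.13 (edgeR adjusted p 0.0491), and Edem1 at 437 ± 29.0 against 605 ± 48.6 (-0.47 ± 0.11, 0.0294). EdgeR called 0 of the 99 list genes in old against young, with 14 (14.1%) at an unadjusted p under 0.05 against 15.3% of all genes. DESeq2 called 2 there (Asns and Ern1), beside 5.18% of all genes, and voom 11 (11.1%, against 12.6% of all genes). In old repopulated against old edgeR called 0, with 16 (16.2%) at an unadjusted p under 0.05 against 10.4%. DESeq2 called 0 there, beside 1.67% of all genes, and voom 1 (Tcp1), beside 2.21%. In old repopulated against young repopulated edgeR called 0, with 18 (18.2%) against 11.7%. DESeq2 called 1 there (Ptges3), beside 0.491% of all genes, and voom 33 (33.3%, against 17%). For the difference between repopulation effects edgeR called 0, with 6 (6.06%) against 8.24%, and DESeq2 and voom called 0.

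The genes most like 3 of the members across the 23 libraries, after group means were removed and among 10161 genes with a mean of at least 5 CPM, are given as a description. For Hspd1 they were Ran (Pearson's r 0.95), Tcp1 (0.94), Cct6a (0.92) and Usp14 (0.92), and r was 0.86 to 0.93 with the run removed too. Tcp1 and Cct6a are subunits of TRiC/CCT, and Ran is a GTPase of nuclear transport. For Hspa5 they were Gm45221 (0.85), Hikeshi (0.82), Hsp90b1 (0.82) and Pdia4 (0.82), which fell to 0.60, 0.60, 0.40 and 0.35 with the run removed. Hsp90b1 is the ER HSP90, and Hikeshi carries HSP70 into the nucleus under heat stress. For Hspa1b they were Zpr1 (0.73), Gadd45g (0.72), Epc1 (0.70) and Wdpcp (0.69), with 0.74, 0.72, 0.70 and 0.71 when the run was removed.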
